A study of Homo sapiens with 4 samples.

Results

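This section describes how far expression in cells given both oncogenes departed from the sum of what each oncogene did alone. RNA came from MCF10A, a non-tumorigenic human mammary epithelial line, in 4 stably transfected forms that carried LacZ (the control), Her2, PIK3CA-H1047R, or Her2 with PIK3CA-H1047R. All 4 were grown in the same SFIHE medium with no treatment, and each was measured on 1 array. The labels do not say whether a form was a clone or a pool, nor which promoter drove the transgenes. With 1 array in each group there is no replicate, no error and no test, and every value below describes these 4 arrays. Values are log2 expression per probe set, so a difference of 1 is 2-fold, and the median of all values was 1.16, which serves as the background level.

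The measure is the departure from additivity: the log2 value on the array labelled with both oncogenes, minus the value on the array labelled Her2, minus the value on the array labelled mutant PIK3CA, plus the LacZ value. It is 0 when the fold differences of the single oncogenes multiply, positive when the double array reads above that product and negative when it reads below it. It was computed for every gene with a probe set of exactly 1 symbol, 20457 genes in all out of 53617 probe sets. Of these, 9646 had a mean of at least 2 over the 4 arrays and were counted. The other 10811 genes fell under this filter. A gene can pass it through 1 array: in 47 counted genes, 40 of them with a departure of 1 or more, the first 3 arrays all read under 2 and the double array alone carried the mean. The 47 are a minimum, since a gene with a first array at 2 or more can still owe its mean to the double array. Genes carried by 1 single-oncogene array also pass, and these were not tallied. A departure of 1 or more was called, in either direction.

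Her2 (ERBB2) is a receptor tyrosine kinase that signals, with its partner receptors, through the MAPK cascade and through PI3K. PIK3CA encodes the catalytic subunit of PI3K, and H1047R is an activating variant of its kinase domain. Because both act on overlapping pathways, their joint output may be a sum, less than a sum where a shared step is already fully driven, or more than a sum where a process needs both inputs.

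The introduced gene went against the labels. In the order LacZ, Her2, mutant PIK3CA and both, the probe set annotated to ERBB2 and MIR4728 read 5.96, 4.29, 8.48 and 7.39. It was lower than LacZ on the array that should carry Her2 and highest on the array that should not. The departure itself is the same if the 2 single-oncogene labels are exchanged, and so are the gains and losses on the double array and the saturation described below. Groups that name 1 single array carry the doubt, and "labelled" is meant literally throughout. The values do not show what an exchange that involves another array would do to these labels.

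Markers of other cell types were mostly near background. Of 9 measured endothelial markers 2 were counted, ESAM at 1.97 to 2.16 and KDR at 3.83, 3.57, 2.03 and 4.81 (departure 3.04), while CDH5 and VWF read at most 0.88 and 1.10. Summed over the counted 2, the level was 4.12 to 6.82. Of 11 leukocyte markers 3 were counted, with sums of 10.34 to 11.11: CD14, CSF1R and CD68, which read 4.68 on the LacZ array and 6.78 on the double one, while PTPRC read at most 0.93. Of 6 adipocyte markers 1 was counted, LPL, at 3.86 on the array labelled mutant PIK3CA and 2.15 to 2.53 elsewhere (-1.29), while ADIPOQ read at most 0.73. Fibroblast markers did not move together. LUM (lumican) read 6.26 and DCN (decorin) 5.06 on the double array against at most 1.15 elsewhere, but COL1A1 read 1.79 to 2.24, COL1A2 at most 0.87 and PDGFRB at most 1.01. DPT read 3.41, 8.38, 3.69 and 7.86 in the order LacZ, Her2, mutant PIK3CA and both. Summed over the 4 counted fibroblast markers (DPT, LUM, FAP and COL1A1, of 12 listed), the level was 10.78, 17.17, 11.02 and 20.76 in that order of arrays. Their part in the results was not tested. Of 12 listed markers of the line itself 8 were counted, with a median departure of -1.42 and 5 at -1 or less. KRT5 read 7.08 to 7.52 on all arrays, CDH1 was far lower on the double array, as described below, and VIM (vimentin) read at most 1.59.

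Over all counted genes the departure had a median of 0.02, quartiles of -0.40 and 0.47 and an SD of 0.83. It was 1 or more in 933 genes (9.67% of those counted) and -1 or less in 667 (6.91%). Over all 20457 genes, most of the added ones near background, the shares were 5.86% and 4.34%. At 2 or more in size these shares were 2.04% and 1.09%, and 64 genes reached 3 or more against 25 at -3 or less. There were more positive than negative departures, but this split followed the level. Among genes with a mean of 2 to 3, 13.6% were called positive and 5.14% negative, while among those with a mean of 8 or more 2.53% were positive and 9.39% negative. Of the 933 positive genes, 49 had an additive expectation below the background level, where an array cannot follow. WDR47, at 1.00, lay just inside the upper threshold and CPNE2 just outside it, and FMNL2 lay just inside the lower one and HMOX1 just outside.

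The departure can be set beside the 2 other differences that 4 arrays allow, all on one scale. The contrast of the Her2 label (the 2 arrays with it minus the 2 without) had an SD of 1.13 across counted genes, the contrast of the mutant PIK3CA label 1.17 and the departure 0.83. Of the total sum of squares between arrays, 38.1%, 41.3% and 20.6% belonged to these contrasts in that order. Agreement between probe sets was read on the same 4 arrays, so it holds no variation between arrays. A second probe set of mean 2 or more was present for 156 counted genes, and the departures of the 2 probe sets differed by a median of 0.19 and with an SD of 0.54. In 35 of these genes both probe sets held identical values. Without them the median was 0.26 and the SD 0.62 over 121 genes. Of 11 positive genes among the 121, 5 were positive by the second probe set too, of 7 negative genes 3 were negative by it, and of 103 others 12 passed 1 in size by it. Among the genes named below, the second probe set gave -0.38 in place of -2.33 for DES, -0.10 in place of 1.14 for CSNK1E and 0.86 in place of 2.29 for HSD17B1.

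**Figure D1:**
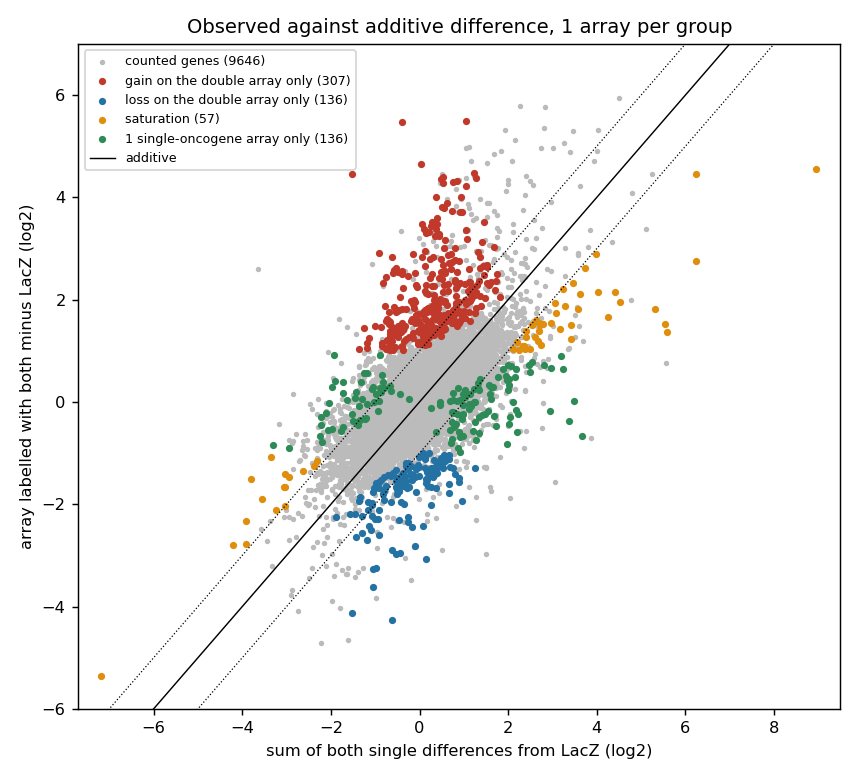
Each point is 1 counted gene, with the sum of both single differences from LacZ on the x axis and the difference of the double array from LacZ on the y axis, both in log2 units. The solid line marks additivity and the dotted lines a departure of 1. The 307 gains on the double array only stand above the line and the 136 losses below it near a single-oncogene sum of 0, whereas the 57 saturated genes lie far from 0 on the x axis and nearer to it on the y axis.

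Against LacZ alone, 3.22% of counted genes were at least 2-fold higher and 2.82% lower on the array labelled Her2, 4.81% and 3.68% on the array labelled mutant PIK3CA, and 12.1% and 8.81% on the double array. The departures were sorted by these differences. Of the 933 positive genes, 654 had neither single array 1 or more away from LacZ, and in 326 of these the double array alone was at least 2-fold above LacZ. In the other 328 small differences on several arrays added up to the call. Only the mutant PIK3CA-labelled array had moved in 165, only the Her2-labelled array in 75, both the same way in 33 and both in opposite ways in 6. Of the 667 negative genes, 384 had neither single array moved, and in 242 of these the double array too was within 1 log2 unit of LacZ. Only the mutant PIK3CA-labelled array had moved in 158, only the Her2-labelled array in 66, both the same way in 53 and both in opposite ways in 6. Genes with neither single array moved were 70.1% of the positive and 57.6% of the negative calls, but they were also 8398 of all 9646 counted genes. Apart from the enlargement counted below, 595 of the 933 positive and 420 of the 667 negative genes met none of the patterns described below.

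Gains on the double array only were the largest of the defined patterns at this filter (with a mean of at least 4 there were 93 gains and 106 losses). They were defined as genes at least 2-fold higher there than on each other array, with the other 3 arrays within 2-fold of each other, and held 307 genes (3.18% of those counted). Their median level was 2.72, 2.84, 2.87 and 4.80 in the order LacZ, Her2, mutant PIK3CA and both, and 250 of them departed by 1 or more. In 40 of them the other 3 arrays all read under 2, so that they were counted only through the double array and had to differ there, and the size of the gain is bounded by background. The definition fixes the direction of these departures, and the values are a description.

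The 12 genes of largest departure in this group are given next. In the order LacZ, Her2, mutant PIK3CA and both, H1-5, a linker histone made in S phase, read 1.75, 0.93, 1.05 and 6.21, a departure of 5.99. LUM, a matrix proteoglycan of connective tissue, read 0.78, 0.63, 0.52 and 6.26 (5.88). IFI6, an interferon-induced mitochondrial protein, read 2.15, 2.64, 1.68 and 6.81 (4.63). For these 3 genes no single array lay above LacZ by even 1 log2 unit, and the double array stood at least 4 log2 units above each other one.

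FAM111B, a protease of proliferating cells, read 0.90, 1.32, 1.52 and 6.40, with a departure of 4.46. EXO1, an exonuclease of mismatch and recombination repair, read 1.86, 1.63, 2.61 and 6.27 (3.89). CLSPN (claspin, an adaptor of the replication checkpoint) read 1.32, 1.35, 1.79 and 5.69 (3.87). SPC24, a subunit of the kinetochore NDC80 complex, departed by 3.82, FAM72D by 3.74, the chromatin remodeller HELLS by 3.63, CCNE2 (cyclin E2, which starts S phase) by 3.54, the kinetochore protein CENPI by 3.46 and GINS1, a subunit of the replicative helicase, by 3.45. On the double array these 6 read between 5.17 (CCNE2) and 5.85 (GINS1), and elsewhere at most 3.01.

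Losses on the double array only, defined in the mirrored way, held 136 genes (1.41%). They started from higher levels than the gains: the medians were 5.67, 5.45, 5.51 and 4.05 in the same order of arrays, and 107 of them departed by -1 or less. The 12 of largest departure included proteins of epithelial contact. CDH1 (E-cadherin, the adhesion molecule of adherens junctions) read 9.34, 8.94, 9.13 and 5.07, with a departure of -3.65. MST1R (RON, a receptor tyrosine kinase of epithelia) read 4.88, 4.89, 5.03 and 1.81 (-3.23). DSG3, a desmosomal cadherin, read 7.95, 8.09, 8.76 and 6.01 (-2.90). The first 3 arrays lay within 1 log2 unit of each other for each gene, and the double array stood clear of them.

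SLC7A5, the large neutral amino acid transporter LAT1, read 11.08, 10.92, 11.15 and 8.27 (-2.71), the highest level among the 12. SPINT1, an inhibitor of membrane serine proteases, read 7.44, 6.55, 7.28 and 3.82 (-2.57). ESRP1, the splicing regulator of epithelial isoforms, read 8.22, 7.61, 8.31 and 5.25 (-2.45). The synaptic vesicle protein SYN3 departed by -2.60, FLRT3, an adhesion protein, by -2.56, the microtubule-associated MAP7 by -2.53, the troponin TNNT1 by -2.51, PLEK2 by -2.46 and TC2N by -2.44. SYN3 read 0.76 on the double array, below the background level, so its departure is bounded there.

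**Figure D2:**
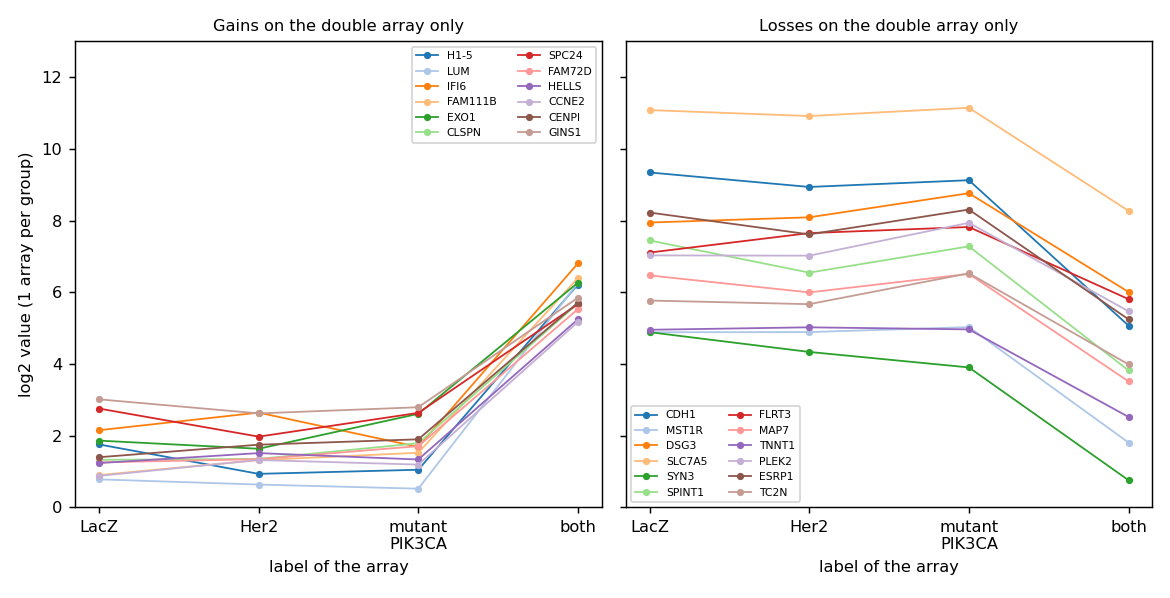
Log2 values on the 4 arrays, 1 array per group, for the 12 gains (left) and 12 losses (right) of largest departure among genes that stood apart on the double array only. Lines join the values of 1 gene and imply no order. All 12 gains read 3.01 or less on the first 3 arrays and 5.17 or more on the double array, and CDH1 falls from 8.94 or more to 5.07.

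Promoters of these groups are shown because their members moved together on 1 array. The windows are the 250 bases before the annotated start in RefSeq (GRCh38.p14), 5′ to 3′ on the gene's strand, for the genes of largest departure in each group whose window held a searched motif. No promoter entry was available for CDH1, LUM, SYN3 and CCNE2, so their windows were not searched. Capitals mark matches on either strand: CCAAT (the CCAAT box), TTTGAA (CHR, a cell cycle element), the interferon-stimulated response element and, in the losses, CAGGTG (an E-box of the kind that SNAIL and ZEB repressors read). The gains are H1-5 (chr6:27867589-27867838, minus strand), IFI6 (chr1:27672193-27672442, minus), CLSPN (chr1:35769979-35770228, minus) and SPC24 (chr19:11155783-11156032, minus).
H1-5: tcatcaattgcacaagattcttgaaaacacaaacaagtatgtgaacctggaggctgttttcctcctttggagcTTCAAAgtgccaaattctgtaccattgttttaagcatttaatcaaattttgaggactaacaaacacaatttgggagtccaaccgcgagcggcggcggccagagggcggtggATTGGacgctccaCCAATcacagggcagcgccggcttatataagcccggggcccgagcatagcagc
IFI6: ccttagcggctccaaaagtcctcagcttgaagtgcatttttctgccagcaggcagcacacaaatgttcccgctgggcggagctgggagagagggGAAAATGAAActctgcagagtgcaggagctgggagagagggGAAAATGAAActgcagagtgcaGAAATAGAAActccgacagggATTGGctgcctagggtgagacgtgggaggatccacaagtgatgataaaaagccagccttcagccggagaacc
CLSPN: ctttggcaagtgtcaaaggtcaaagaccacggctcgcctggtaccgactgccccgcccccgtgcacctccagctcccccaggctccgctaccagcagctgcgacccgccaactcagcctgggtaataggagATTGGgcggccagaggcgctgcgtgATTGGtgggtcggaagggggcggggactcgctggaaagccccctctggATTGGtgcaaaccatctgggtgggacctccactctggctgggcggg
SPC24: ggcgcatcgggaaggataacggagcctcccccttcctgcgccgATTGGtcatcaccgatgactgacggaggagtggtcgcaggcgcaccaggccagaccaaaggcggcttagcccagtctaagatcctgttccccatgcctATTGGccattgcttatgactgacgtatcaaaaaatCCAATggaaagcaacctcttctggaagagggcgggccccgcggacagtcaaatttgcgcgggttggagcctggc
The losses are MST1R (chr3:49903874-49904123, minus), MAP7 (chr6:136550423-136550672, minus) and PLEK2 (chr14:67412166-67412415, minus).
MST1R: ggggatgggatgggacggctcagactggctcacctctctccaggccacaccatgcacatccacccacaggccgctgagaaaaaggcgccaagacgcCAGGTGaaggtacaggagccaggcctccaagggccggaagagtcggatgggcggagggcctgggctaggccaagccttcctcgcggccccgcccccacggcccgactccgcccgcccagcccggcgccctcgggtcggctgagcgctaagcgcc
MAP7: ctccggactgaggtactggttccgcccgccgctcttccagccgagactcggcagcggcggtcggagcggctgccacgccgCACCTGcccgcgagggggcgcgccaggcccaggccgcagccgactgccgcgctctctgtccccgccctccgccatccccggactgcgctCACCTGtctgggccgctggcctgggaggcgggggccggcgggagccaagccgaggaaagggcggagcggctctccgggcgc
PLEK2: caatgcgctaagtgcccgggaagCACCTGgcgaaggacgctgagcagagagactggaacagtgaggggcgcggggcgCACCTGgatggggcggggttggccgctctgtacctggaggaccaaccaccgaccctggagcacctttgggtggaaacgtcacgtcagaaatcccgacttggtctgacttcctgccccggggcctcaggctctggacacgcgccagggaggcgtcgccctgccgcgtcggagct
IFI6 held 3 matches to the interferon-stimulated response element, which began 156, 115 and 93 bases before the start, and CLSPN and SPC24 each held 3 CCAAT boxes. The histone H1-5 held 2 CCAAT boxes, beginning 66 and 53 bases before the start.

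Over whole promoter windows of 300 bases (250 before to 50 after the start, the first listed for each gene), motif shares differed between the groups. The CCAAT box was in 46.5% of 260 gains with a promoter, against 37.1% of 7897 counted genes and 35.7% of all 27305 promoters. An E2F site (TTTNNCGC, E2F being the factors that drive S phase genes) was in 18.8% of the gains, 3.92% of 102 losses, 10.9% of counted genes and 6.90% of all promoters. CHR was in 16.2% of the gains and 6.86% of the losses, against 9.45% of counted genes and 15.4% of all promoters. The E-box was in 31.4% of the losses and 17.7% of the gains, against 18.1% and 20.6%. The interferon element was in 5.00% of the gains, against 2.58% and 3.65%. AP-1 (TGANTCA) was in 3.08% of gains and 6.86% of losses, against 4.20% and 7.76%, and the TEAD site (GGAATG) in 14.2% and 6.86%, against 10.5% of counted genes and 14.05% of all promoters. The sterol response element was in 0 of either group, against 0.34% and 0.59%. A match is a description of letters, and no share was tested.

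S phase and mitotic genes are given in turn. All 24 counted S phase genes (of 25 listed) had a positive departure, and 23 passed 1, with a median of 1.97 against 0.02 over all counted genes and 9.67% called. Of these, 17 were gains on the double array only. In 3 of the 24 the first 3 arrays all read under 2, so they passed the filter only through the double array. E2F1 and GINS2, which read at most 2.44 and 2.08 on the first 3 arrays, depended on it too. The median level of the 24 was 3.31, 3.23, 3.46 and 5.52 in the order LacZ, Her2, mutant PIK3CA and both. CLSPN and CCNE2 led, followed by TYMS (thymidylate synthase), which read 2.33, 3.42, 3.16 and 7.64, a departure of 3.39. MCM5, a helicase subunit, had the smallest, at 0.78. On the single arrays the list's median stayed within 1 log2 unit of LacZ, and on the double array it lay more than 2 above.

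Mitotic genes had the larger departure and a different origin. Of 24 counted (of 25 listed), 21 passed 1 and none passed -1, with a median of 2.39, but 0 were gains on the double array only. Their median level was 2.31, 2.44, 4.73 and 6.81, and 23 of the 24 were already at least 2-fold above LacZ on the array labelled mutant PIK3CA. CDK1, the kinase that drives entry into mitosis, read 1.66, 1.42, 2.94 and 6.62 (3.91). CCNA2 (cyclin A2) read 3.09, 2.41, 4.91 and 7.79 (3.55). KIF20A, a kinesin of cytokinesis, read 1.40, 1.39, 3.67 and 7.18 (3.51), and HMMR, a spindle protein, 2.09, 2.69, 5.42 and 6.81 (0.79, the smallest). KIF20A lay near background on the LacZ and Her2 arrays, so a fall there could not have been seen.

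Repair genes follow. Of 11 counted recombination and Fanconi genes (of 20 listed), 8 passed 1 and 7 were gains on the double array only, with a median of 1.66, and 2 of the 11 were counted only through the double array. FANCI, which is clamped on DNA at crosslinks, read 2.65, 2.58, 3.12 and 6.25 (3.21), the helicase BLM at most 1.39 on the first 3 arrays and 4.65 on the double one (3.19), and ATR, the kinase of replication stress, 3.76, 4.29, 3.86 and 4.90 (0.51). Only 3 of the 20 listed replication-dependent histones were counted, H2BC14, H1-4 and H1-5, and they departed by 6.25, 3.00 and 5.99. Their median of 5.99 was 2.32 over the 8 measured without the filter, and H1-5 passed the filter only through the double array. H2BC14 read 3.73, 2.07, 1.73 and 6.32, lower than LacZ on both single arrays and higher on the double one, with the largest departure of any counted gene. Its additive expectation was 0.07 and that of H1-5 0.23, both below the background level, where an array cannot follow. Together these 4 lists held 62 counted genes and supplied 25 of the 307 gains on the double array only, which leaves 282 outside them.

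**Figure D3:**
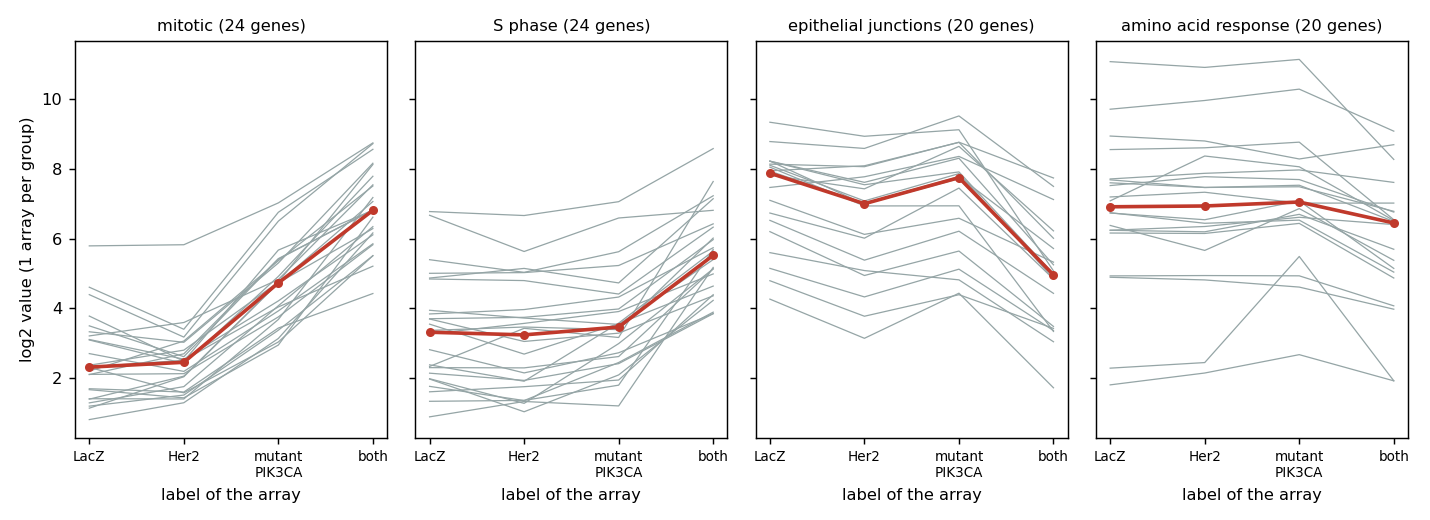
Log2 values of the counted members of 4 gene lists on the 4 arrays (grey, 1 line per gene) with the median of the list (red). Mitotic genes stand higher on the array labelled mutant PIK3CA and higher again on the double array, the S phase median is 3.23 to 3.46 on the first 3 arrays and 5.52 on the double array, and the junction and amino acid response medians are lowest on the double array, at 4.96 and 6.45.

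The enlargement seen for mitotic genes was counted over all genes, by a rule added after their values were seen. Among 376 genes at least 2-fold above LacZ on the mutant PIK3CA-labelled array and within 2-fold on the other single array, 64 (17.0%) were at least 2-fold higher again on the double array with a departure of 1 or more. In 99 (26.3%) the rise was lost: the double array read at least 2-fold below that single array and less than 2-fold above LacZ. Some of these fell past LacZ, such as BMP6 (double array minus LacZ -1.57). Among the 227 such genes of the Her2-labelled array, 13 (5.73%) were enlarged. In 38 (16.7%) the rise was lost, CDH11 (double array minus LacZ -2.96) among them. Genes below LacZ were enlarged in 15 of 202 (7.43%, Her2-labelled) and 3 of 289 (1.04%, mutant PIK3CA-labelled). Among those of the Her2-labelled array, ADGRG1, an adhesion G protein-coupled receptor, read 7.43, 6.24, 6.99 and 2.76 (-3.04), and CLDN7, a claudin of tight junctions, 8.11, 7.08, 7.87 and 4.85 (-1.99).

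Epithelial junction genes departed downwards. Of 20 counted (of 27 listed), 14 passed -1 and 0 passed 1, with a median of -1.57, where 6.91% of counted genes passed -1. Of these 20, 7 were losses on the double array only. The median level was 7.88, 7.001, 7.75 and 4.96, and 7 of the 20 were already at least 2-fold below LacZ on the array labelled Her2, against 18 on the double array. CDH1 and DSG3 led. LSR, a receptor of tricellular junctions, read 8.05, 6.94, 6.94 and 3.33 (-2.49), and PKP3 (plakophilin 3, a desmosomal plaque protein) 4.79, 3.77, 4.39 and 3.42 (0.05). LSR and HSD11B2, the enzyme that inactivates cortisol (5.99, 4.83, 4.41 and 1.91, departure -1.34), were the only 2 counted genes at least 2-fold lower on both single arrays whose fall on the double array exceeded the sum by 1 or more (0.0207%). No counted gene was at least 2-fold higher on both single arrays and above the sum by 1 or more.

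Membrane serine proteases, their inhibitors and the sodium channel were low on the double array in all 11 counted members (of 16 listed), each at least 2-fold below LacZ, but much of that was additive. Their median departure was -0.88, with 5 at -1 or less and 1 at 1 or more, where 6.91% and 9.67% of all counted genes were. SPINT1 was a loss on the double array only. PRSS8 (prostasin, an activator of the sodium channel) read 7.51, 6.30, 6.92 and 3.48 (-2.24), and the channel subunit SCNN1G 7.92, 7.66, 6.80 and 4.61 (-1.93). The subunit SCNN1B read 8.58, 7.40, 6.87 and 4.80 (-0.88) and KLK10, a kallikrein protease, 7.38, 5.88, 6.10 and 4.74 (0.15), both near the sum of the single differences. The direction of this list depended on the scale: with linear values added in place of log2 values its median was 0.56.

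Amino acid response genes departed downwards in 2 ways. Of 20 counted genes (of 22 listed), 10 passed -1 and 0 passed 1, against 6.91% and 9.67% of all counted genes. Their median was -1.03, and 5 were losses on the double array only. Their median level was 6.91, 6.94, 7.05 and 6.45. On the double array 7 of the 20 were at least 2-fold below LacZ, SLC7A5 (described above) among them. For the 2 members of largest departure single arrays were high instead, both for SLC7A11 and only the mutant PIK3CA-labelled array for ATF3. SLC7A11, the cystine importer, read 7.08, 8.37, 8.06 and 6.52 (-2.83), and ATF3, a stress-induced transcription factor, 2.28, 2.44, 5.49 and 1.91 (-3.73). PSPH, an enzyme of serine synthesis, read 7.19, 7.33, 7.02 and 7.02 (-0.14).

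Cholesterol genes had a smaller upward departure. Of 14 counted cholesterol genes (of 20 listed), 5 passed 1 and 0 passed -1, with a median of 0.76 and median levels of 4.79, 4.59, 5.28 and 6.43. ACAT2, a thiolase of the sterol pathway, read 4.64, 4.41, 5.56 and 7.70 (2.38), HMGCS1, which makes HMG-CoA, 3.85, 3.97, 4.76 and 7.21 (2.32), MVD, which acts in the mevalonate pathway, 4.94, 3.94, 5.11 and 6.18 (2.08), and MSMO1 7.78, 8.11, 8.71 and 9.38 (0.34). Fatty acid synthesis genes had a median of 0.28, with 1 of 10 past 1, near the 9.67% of all counted genes: ACLY, which makes cytosolic acetyl-CoA, at 1.68.

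Interferon-stimulated genes were mostly at background. Only 5 of 26 listed were counted, 4 of them past 1, with a median of 1.70 that was 0.56 over the 25 measured without the filter. Beside IFI6, IFITM2 read 6.37, 6.08, 3.36 and 5.53 (2.46) and IFITM3 4.10, 3.95, 2.93 and 4.48 (1.70). In both of these membrane antiviral proteins the departure came from a low value on the array labelled mutant PIK3CA. HERC6, which passed the filter only through the double array, departed by 0.92. Of 10 class I antigen presentation genes, 2 passed 1, against 9.67% of all counted genes. They were PSMB10, an immunoproteasome subunit (1.66), and B2M, the light chain of class I molecules, which read 5.73 on the LacZ array and 8.04 on the double one (1.29).

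Saturation was the pattern of fewer genes than either double-array pattern. It was defined as both single arrays and the double array at least 2-fold from LacZ the same way, the double array less than 1 log2 unit beyond the more extreme single one, and a departure of 1 or more towards LacZ. It held 41 genes upwards (0.425% of those counted) and 16 downwards (0.166%). Of the 132 counted genes that both single arrays moved the same way, some were higher and some lower. A shortfall is negative in the first and positive in the second, so their pooled median departure of -0.46 mixes both signs. Of these 132, 46 were within 1 of the sum, 24 higher (0.249%) and 22 lower (0.228%).

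The 8 saturated genes upwards of largest departure included matrix and cornified envelope genes. POSTN, the matricellular protein periostin, read 4.07, 9.19, 7.90 and 8.62, a departure of -4.40. TIMP3, an inhibitor of metalloproteinases, read 3.17, 5.35, 6.57 and 4.53 (-4.22), and FBN2 (fibrillin 2) 1.48, 4.57, 3.71 and 3.30 (-3.50). POSTN was about as high on the double array as on either single one, while TIMP3 and FBN2 were lower there than on both. The cornified envelope genes SCEL (1.41, 3.32, 5.06 and 2.94, departure -4.02) and CASP14 (1.05, 2.94, 5.40 and 3.80, departure -3.48) and the sorting receptor SORCS3 (1.53, 3.10, 4.50 and 3.48, departure -2.59) had the double value between LacZ and the array labelled mutant PIK3CA. N4BP2 departed by -2.59 and the channel protein CLIC2 by -2.26.

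By contrast LTBP1, which binds latent TGF-beta, was close to additive, at 3.04, 5.88, 5.00 and 7.14 (-0.70), as were CHML at -0.70, the hyaluronidase-related CEMIP2 at -0.66, PLCXD3 at -0.47, the mitotic kinesin KIF2C at 0.60 and the chemokine CXCL8 at 0.94. CXCL8 read 0.84, 2.04, 2.61 and 4.75. Genes higher on both single arrays thus did not share one pattern.

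Downwards, HSD17B1, a steroid dehydrogenase, read 3.95, 2.18, 1.92 and 2.45 (2.29), LRRC37A3 read 4.25, 3.17, 1.98 and 3.19 (2.28) and CST6, a cysteine protease inhibitor, departed by 1.65. The kallikrein KLK6 read 8.07, 5.25, 3.70 and 2.71 (1.83). KLK6 was lower on the double array than on each single one, and the double array was lower than the more extreme single array by 0.99. MYH14, a non-muscle myosin, departed by 1.60, MRM1 by 1.48, PADI2, which converts arginine to citrulline, by 1.40 and TRIM47 by 1.38. In 9 of the 16 the additive expectation lay below the background level, so that a smaller fall than the sum was all an array could show. Near additivity were STMN3 (0.71), CDC42EP4 (0.56), GIT1 (0.82) and TMEM238 (0.11).

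Some genes that both single labels moved were no longer 2-fold from LacZ in that direction on the double array. There were 10 such genes upwards (0.104%) and 17 downwards (0.176%). The rule sets no bound past LacZ: the 17 include H2BC14, described above, which read 2.59 above LacZ on the double array. SLITRK6, a neuronal-type membrane protein, read 5.33, 7.56, 6.99 and 4.63 (-4.59) and MMP3 (stromelysin) 2.31, 3.38, 4.04 and 2.29 (-2.81). The Golgi genes GOLGA4 and ARFGAP3 departed by -2.20 and -2.05, PAGE5 by -1.97 and ZFHX3 by -1.76. Downwards, the histone H1-4 read 8.32, 6.85, 6.94 and 8.47 (3.00), ECHDC3 3.84, 2.34, 2.17 and 3.42 (2.75), and ETV4, a transcription factor downstream of MAPK signals, 4.74, 3.25, 3.36 and 3.98 (2.11). The amino acid transporter SLC43A2 departed by 2.21 and the zinc finger gene ZFP3 by 2.16. In 8 of the 17 genes downwards the additive expectation lay below the background level, so an array could not have shown the sum.

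Genes that stood apart on 1 single-oncogene array, with the other 3 arrays within 2-fold of each other, were more frequent on the array labelled mutant PIK3CA, where 58 were higher (0.601%) and 37 lower (0.384%). HES1, a repressor induced by Notch, read 5.22, 5.27, 8.84 and 4.55, a departure of -4.34. ATF3 is given above. PAPPA2, a protease of IGF-binding proteins, read 1.52, 2.14, 3.84 and 1.35 (-3.11), and OXTR, the oxytocin receptor, 4.33, 4.64, 6.23 and 3.74 (-2.80). A2ML1, a protease inhibitor of stratified epithelia, departed by -2.78, the arginase ARG2 by -2.60, FAM110C by -2.46 and DES (desmin) by -2.33. In each of these 8 the double array read within 1 log2 unit of LacZ, as the definition requires. PAPPA2 and DES passed the filter only through the mutant PIK3CA-labelled array, and so had to be high there.

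Lower on that array alone were TMT1A, a thiol methyltransferase (5.38, 6.18, 2.65 and 6.29, departure 2.83), IFITM2 (2.46), MXRA7 (2.32), TGFB1 (5.93, 5.61, 4.52 and 6.32, departure 2.12), the carboxypeptidase SCPEP1 (2.03), SUSD2 (1.90), GSR (glutathione reductase, 1.83) and the RNA-binding RBMS3 (1.80). On the array labelled Her2 alone 29 genes were higher (0.301%) and 12 lower (0.124%). PCDHB14, a clustered protocadherin, read 4.14, 6.34, 4.16 and 3.90 (-2.46). FOXO3, a transcription factor that PI3K signalling keeps out of the nucleus, read 1.31, 3.73, 1.86 and 1.96 (-2.32), and SULF1, an extracellular sulfatase, 0.98, 4.23, 0.93 and 1.89 (-2.29). FOXO3 and SULF1 passed the filter only through the Her2-labelled array, and so had to be high there. The protease TLL1 departed by -1.97, IGFBP3 by -1.95, the collagen COL8A1 by -1.66, the glypican GPC6 by -1.59 and ZNF383 by -1.55. Lower there alone were the immunoglobulin segment IGHD2-21 (1.94), PODXL2 (1.91), the mitochondrial ribosomal MRPL54 (1.58), POLR1G, a subunit of RNA polymerase I (1.46), the T cell receptor segment TRBV23-1 (1.37), the myosin MYO19 (1.36), CSNK1E (1.14) and IMPDH1 (1.00). If the single labels were exchanged, these groups would exchange names.

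**Figure D4:**
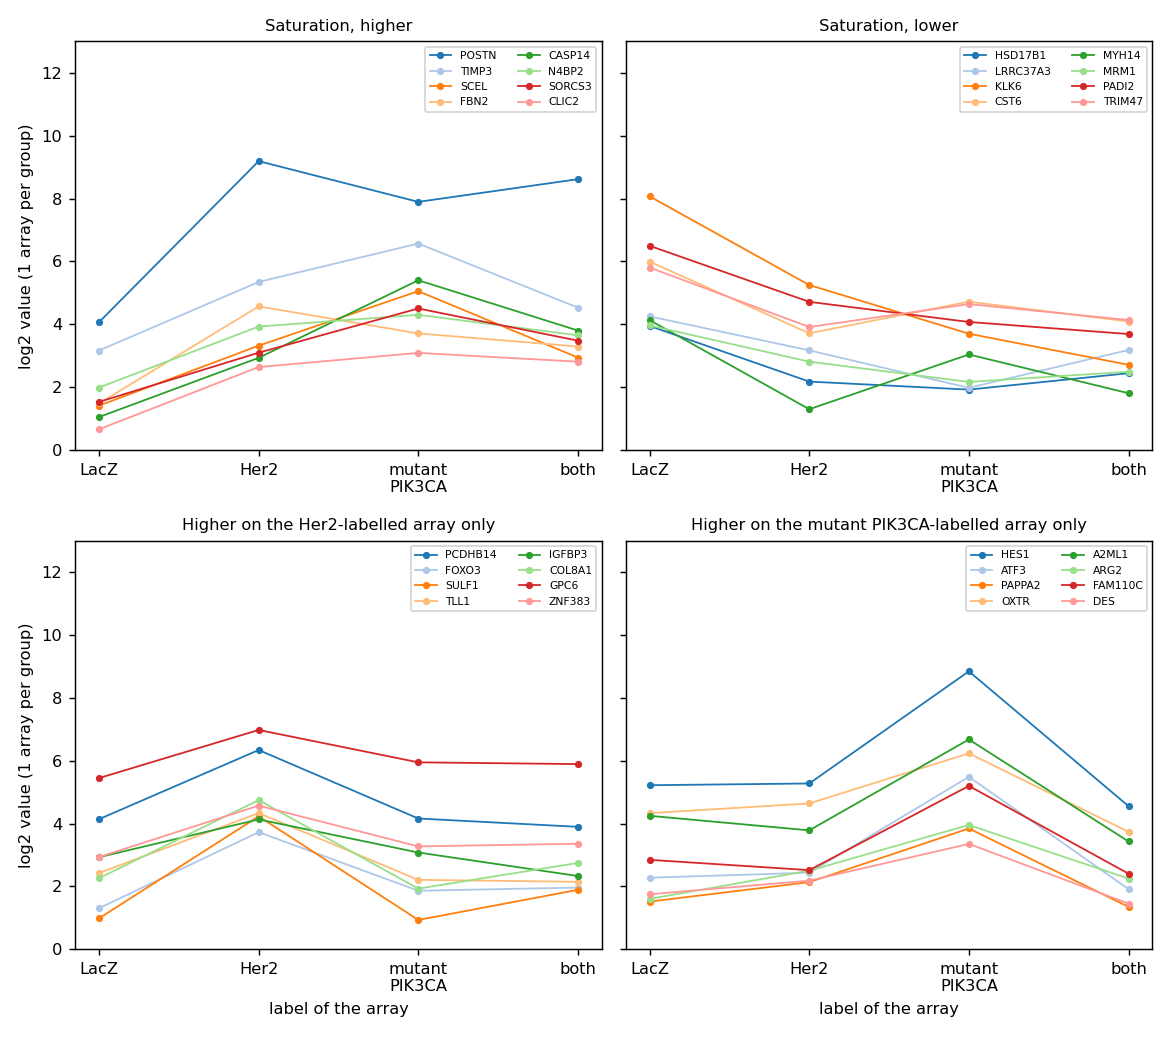
Log2 values on the 4 arrays, 1 array per group, for the 8 genes of largest departure that saturated upwards or downwards (top) and that were higher on 1 single-oncogene array only (bottom). Lines join the values of 1 gene and imply no order. POSTN reads 7.90 to 9.19 on the 3 oncogene arrays, and HES1 reads 8.84 on the array labelled mutant PIK3CA and 5.27 or less elsewhere.

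Metalloproteinase and cornification genes had more members past -1 than past 1. Counts in this paragraph are to be read against 6.91% of all counted genes past -1 and 9.67% past 1. Of 10 counted metalloproteinase and inhibitor genes (of 16 listed), 5 passed -1 and 0 passed 1 (median -0.97). MMP1, the interstitial collagenase, read 1.29, 0.87, 7.27 and 2.04, the lowest departure of any counted gene at -4.81. MMP1 passed the filter only through the mutant PIK3CA-labelled array, and so had to be high there. TIMP2 read 7.22, 7.39, 6.33 and 6.47 (-0.02). Of 10 counted cornification genes (of 21 listed), 5 passed -1 (median -1.01, and -0.45 without the filter), among them LCE3D at -2.50, while SBSN stood at 0.03. LCE3D too was counted only through the mutant PIK3CA-labelled array. Stromal-type matrix genes spread from -4.40 (POSTN) to 5.88 (LUM), with a median of -0.60 (-0.16 without the filter), 3 of 13 past -1 and 2 past 1. Of the 13, LUM passed the filter only through the double array.

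Mesenchymal genes, in contrast, had no common departure. Of 12 counted, 1 passed 1 and 3 passed -1, against 9.67% and 6.91% of all counted genes. Their median was 0.13, and -0.60 with a mean of at least 3. Of the 12, 2 passed the filter only through the double array, CDH2 among them. The cadherins went apart: CDH2 (N-cadherin) read 0.97, 1.67, 1.54 and 5.34 (3.11), and CDH11 (cadherin 11) 5.43, 6.63, 5.72 and 2.46 (-4.47). TNC (tenascin C) departed by -1.59. SNAI2, a transcription factor of basal and mesenchymal cells, read 9.32, 9.77, 9.74 and 9.81 (-0.38).

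Basal epithelial genes had a median of -0.71, with 4 of 9 past -1, where 6.91% of counted genes were. LAMB3, a chain of the basement membrane laminin, read 8.61, 8.19, 10.15 and 6.94 (-2.79), KRT15 7.37, 6.36, 6.74 and 4.01 (-1.71), and the integrin ITGA6 8.59, 8.68, 9.84 and 8.28 (-1.65), while KRT5 departed by -0.19. Luminal genes had a median of -0.45, with KRT8 at -2.04, XBP1 at -1.21, KRT7 at 1.12 and MUC1 at -0.14.

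Lists for the oncogenes' own pathways are given next, against the 9.67% and 6.91% of all counted genes past 1 and -1. Of 16 counted PI3K components (of 20 listed), 1 passed 1 (PIK3R3, a regulatory subunit, 1.07) and 1 passed -1 (INPP4B, a lipid phosphatase, -1.42), with a median of -0.09. The phosphatase PHLPP1 departed by 0.76 and TSC1 by -0.05. FOXO targets had a median of -0.07, with 4 of 17 past 1 and 3 past -1. GADD45B departed by 1.61, BCL6 by 1.53, FBXO32, a ubiquitin ligase subunit, by 1.51 and the CDK inhibitor CDKN1B by -0.06. MAPK output genes had a median of -0.27, with 5 of 19 past -1 and 1, ETV4, past 1. EREG, a ligand of EGFR, read 4.70, 5.45, 5.80 and 4.61 (-1.94), PHLDA1 departed by -1.69, and DUSP6, the phosphatase that restrains ERK, read 8.56, 8.41, 7.23 and 7.06 (-0.01). Of 9 ERBB receptors and ligands, with a median of -0.64, 2 passed -1: EGFR, at 8.11, 8.62, 8.35 and 7.16 (-1.70), and the ligand EPGN (-1.33), with NRG1 at -0.73 and LRIG1 at -0.12.

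Of the other lists, whose counts are again to be read against 9.67% and 6.91%, p53 targets had 0 of 20 past either threshold, a range of -0.77 (SESN2) to 0.84 (EDA2R) and a median of 0.03. BBC3 departed by 0.69 and SPATA18 by -0.04. YAP targets had a median of 0.23 and 2 of 15 past -1, GADD45A at -1.06 and LATS2 at -1.02, beside TGFB2 at 0.85 and ARHGEF17 at -0.03. TGF-beta targets had a median of -0.53, with BAMBI, a decoy receptor, at -3.92, TGFB1 at 2.12, ID2 at 1.45 and CCN2 at -0.05. Inflammatory genes had a median of 0.19 (-1.14 with a mean of at least 3), with SAA1, an acute phase protein, at 3.42, the cytokine IL1A at -2.31, TNFAIP3, a brake on NF-kB, at -1.70 and CSF3 at -0.01. Glycolysis and hypoxia genes had a median of 0.22, with the aldolase ALDOC at 3.17, NDRG1 at -1.94, ANGPTL4 at 1.69 and PDK1 at 0.01. ALDOC read at most 1.83 on the first 3 arrays and 4.41 on the double array, through which alone it passed the filter. NRF2 targets had a median of 0.18, with NQO1, a quinone reductase, at 3.18, SLC7A11 at -2.83, the exporter ABCC2 at 2.34 and AKR1C3 near 0. HOX genes had one of -0.05, with HOXC8 at 1.13, HOXB9 at -0.80, HOXA2 at 0.53 and HOXC9 at -0.03. Housekeeping genes had one of 0.22, with HPRT1 at 1.53, B2M at 1.29, TFRC at 0.69 and ACTB at 0.01.

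**Figure D5:**
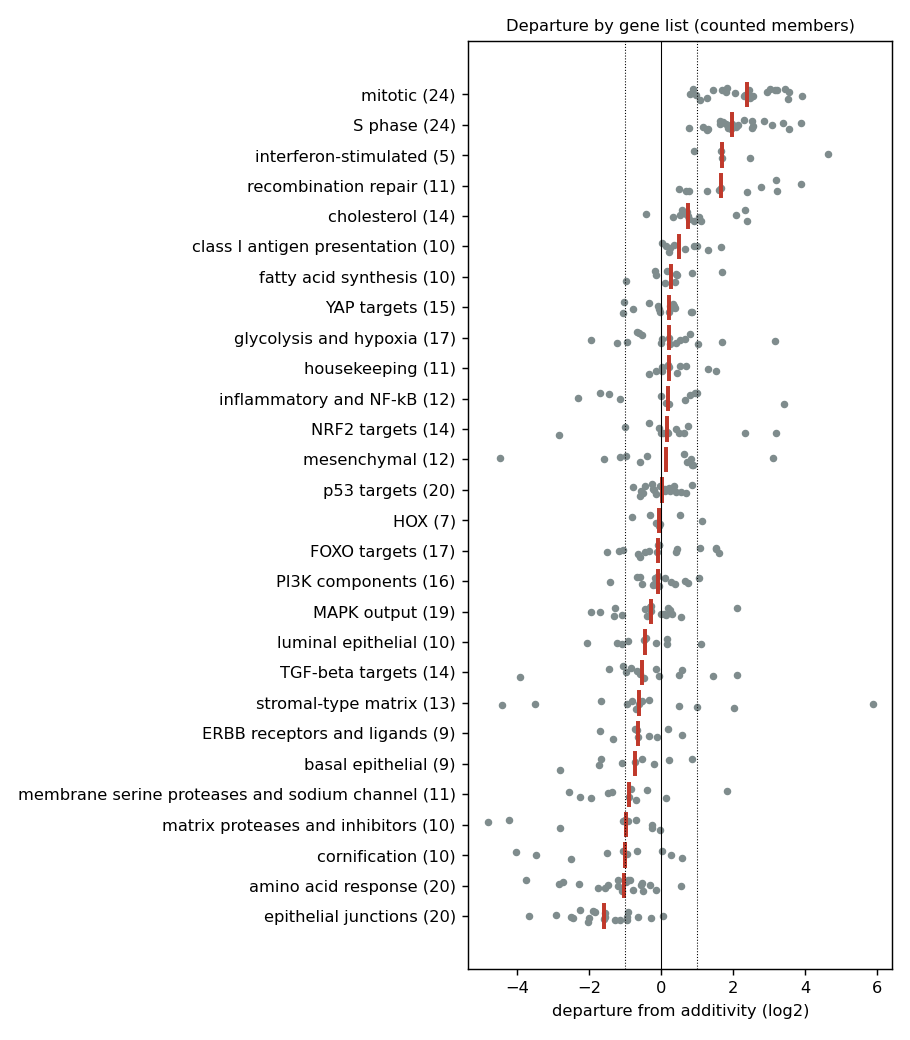
Departure from additivity in log2 units for the counted members (points, spread vertically only to be visible) of the 28 gene lists with at least 5 counted members, other than cell type markers, with the median of each list in red and the number counted in parentheses. Dotted lines mark -1 and 1. Mitotic and S phase genes lie at the top, with medians of 2.39 and 1.97, and epithelial junction genes at the bottom, with -1.57.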

How the data were processed

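The deposited table holds log2 expression values, 1 per probe set and array. Per the submitters' processing notes, oligo and RMA were used. Neither versions nor settings were given in the sources used here. Base 2 is taken from RMA and fits values between -0.77 and 12.35. Array medians were 1.13 to 1.17. The number of arrays limits the precision.

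Platform annotation gave 1 symbol for 23871 of 53617 probe sets, several for 1842, and 27904 are unnamed here. Gene identifiers updated 90 symbols through RefSeq (GRCh38.p14). Each gene was read by its probe set of highest mean. Small RNAs, ERBB2 and PIK3CA were left out. Genes with a mean of at least 2 over the 4 arrays were counted. This filter, like one on the highest array, can admit a gene through 1 array. Groups of genes used a threshold of 1 log2 unit.

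Named genes were the 12 of largest departure in each double-array group, 8 in each single-array and saturation group, 6 in each other group (by mean single difference where additive), the 3 largest and the 1 nearest 0 in each gene list with at least 5 counted members, and those beside the threshold. Uncharacterised symbols were counted but not named. DCN, ADGRG1, CLDN7, the cell type markers named singly and the enlargement rule were chosen after their values were seen. Members, lists and motifs were chosen with earlier results of these data known. Alternatives were computed in Python 3.11.15 and with limma 3.58.1 (quantile normalization and cyclic loess).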

Additional observations from a re-analysis of the deposited data

Results flagged for a closer look

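For some genes the difference that went with 1 label turned direction with the other oncogene: it was at least 2-fold one way against the LacZ array and at least 2-fold the other way on the double array. With 1 array per group the difference between the 2 effects, which is the departure, was not tested. In all, 12 counted genes turned from higher to lower and 13 from lower to higher with the Her2 label, and 21 and 11 did with the mutant PIK3CA label. The 6 of largest departure of each kind follow.

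With the Her2 label, higher without and lower with mutant PIK3CA, were SLITRK6 (departure -4.59), CDH11 (-4.47, from 1.21 to -3.26), TIMP3 (-4.22), SCEL (-4.02), CASP14 (-3.48) and SULT1E1, an estrogen sulfotransferase (-3.26, from 1.86 to -1.39). Lower without and higher with it were H2BC14 (6.25), the histone H2AC21 (3.77, from -1.60 to 2.17), the topoisomerase TOP2A (3.45, from -1.22 to 2.23), SAA1 (3.42), the proliferation marker MKI67 (3.02, from -1.21 to 1.81) and H1-4 (3.00).

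With the mutant PIK3CA label, higher without and lower with Her2, were BMP6, a secreted growth factor (-4.62, from 2.89 to -1.73), SLITRK6, BAMBI (-3.92, from 1.40 to -2.52), FAM83B (-3.58), FBN2 (-3.50) and PNLIPRP3 (-3.35). Lower without and higher with it were H2BC14, NQO1 (3.18, from -1.28 to 1.90), ACSL5, which activates fatty acids (3.11), KDR, a VEGF receptor (3.04), H1-4 and the protease ADAMTS9 (2.77).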

How the results depend on the processing

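No paired analysis was possible because each group holds 1 array. Counts moved mainly with filter and threshold. With a mean of at least 3 there were 610 positive genes, 185 gains on the double array only, 14 genes higher on the Her2-labelled array only and 9 saturated downwards. With a mean of at least 4 there were 362 positive and 418 negative genes, 93 gains and 106 losses on the double array only, 4 higher and 5 lower on the Her2-labelled array only, 30 higher on the mutant PIK3CA-labelled array only, and 21 and 6 saturated upwards and downwards. So the excess of positive genes turned: 46.4% of called genes were positive there, against 58.3% in the main setting. With the highest array at 5 or more the counts were 408 and 389, 136 gains, 3 and 3 (Her2-labelled only, higher and lower), 32 and 20 (mutant PIK3CA-labelled only) and 22 and 6 (saturated). At a 1.5-fold threshold they were 1939 and 1672, 463 gains and 314 losses, 83 and 70, 136 and 157, and 181 and 164. At a 4-fold threshold they were 197 and 105, 119 gains and 33 losses, 3 and 0, 12 and 5, and 1 and 0. Exchange of the single labels gave 58 and 37 for the Her2-labelled and 29 and 12 for the mutant PIK3CA-labelled array, by construction, and changed no departure.

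With additivity on the linear scale 9 genes saturated upwards, 67.6% of called genes were positive, and LSR turned to 1.33, because its linear expectation falls to the floor of 2. Against the more extreme single array 5 saturated upwards and 1 downwards, and KLK6 and PADI2 turned to -0.99 and -0.38, since that measure no longer subtracts the weaker single difference. Over all alternatives, named genes' departures moved by less than the SD of 0.54 between probe sets of 1 gene (0.62 without identical ones) 2060 times and by more 164 times, and turned 3 times. The 2060 include 202 without the filter and 202 under exchange of the single labels. They also include 156, 118 and 136 with a mean of at least 3, a mean of at least 4 and a highest array of at least 5. None of these settings can change a gene's departure. Under quantile normalization 823 of 933 positive and 652 of 667 negative calls were kept, and under cyclic loess 857 and 623. A correction for the median departure at each level, added after seeing the data, kept 837 and 630. Without replicates no setting measures biological error, and values near the background level of 1.16 bound what a fall can show.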

Other observations

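Gene families that the text above does not list as such are given here, against a median departure of 0.02 and 9.67% and 6.91% of counted genes past 1 and -1. They were grouped by symbol after their values were seen. Of 18 counted CENP proteins of the kinetochore, 16 passed 1 and 0 passed -1, with a median of 1.71, from -0.07 (CENPT) to 3.46 (CENPI). Of 9 MCM proteins, 6 passed 1, with a median of 1.79 and MCM10 highest at 3.07, and all 3 GINS subunits passed 1. Of the kinesins, 9 of 26 passed 1 and 2 passed -1, with a median of 0.34, from -1.58 (KIF21B) to 3.51 (KIF20A).

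Of 11 integrin chains, 4 passed -1 and 1 passed 1, with a median of -0.71 and ITGB6 lowest at -3.41. Of 16 tRNA synthetases named for their cytosolic enzyme, 0 passed 1 and 2 passed -1, with a median of -0.60. Of 68 mitochondrial ribosomal proteins, 8 passed 1, a share near that of all counted genes, and 0 passed -1, with a median of 0.34. S100 proteins ranged from -2.36 (S100A14) to 2.36 (S100A8). Of 244 ZNF zinc finger genes, 19 passed 1 and 23 passed -1, with a median of -0.04.

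Outside the gene table, 4968 unnamed probe sets had a mean of at least 2. Their departure had an SD of 1.08, with 13.5% at 1 or more and 12.4% at -1 or less. For 334 small RNA probe sets the SD was 1.00 and the shares 12.6% and 13.5%. Both sets had wider and more even departures than the counted genes (SD 0.83, 9.67% and 6.91%).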
